A study of Mus musculus with 42 samples.

Results

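The genes of the G1 phase of the cell cycle followed here were chosen by name. They are the D-type cyclins Ccnd1, Ccnd2 and Ccnd3, the E-type cyclins Ccne1 and Ccne2, the cyclin-dependent kinases Cdk4 and Cdk6, and the CDK inhibitors Cdkn1a (p21), Cdkn1b (p27) and Cdkn2c (p18). All 10 were found among the 21674 genes of the table. Their mRNA was followed by RNA sequencing in 42 libraries. Most were made from intimal RNA, the RNA flushed from the inner lining of the mouse carotid artery, after partial carotid ligation, a surgery that closes the left external, internal and occipital branches and so lowers flow in the left carotid. Each library of this kind was a pool of 3 to 5 arteries. Low flow is the ligated left artery, high flow is the contralateral artery of ligated mice, and sham is the artery of operated mice without ligation.

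At 48 hr, untreated C57BL/6J males of 6 to 7 weeks gave 3 low-flow, 3 high-flow and 3 sham pools, called a, b and c. Further C57BL/6J males of the same age were ligated and given an IgG control antibody, PBS liposomes or a depleting agent. The agents were anti-GPIba, which removes platelets, anti-Gr1, which removes neutrophils and some monocytes, and clodronate liposomes, which remove phagocytes. The low-flow artery of each of these 5 treatments and the high-flow artery of the IgG and PBS liposome mice gave 2 libraries each, and 1 further low-flow pool each came from PBS and clodronate liposome mice. At 7 days, mice with both Rbfox2 alleles floxed (Rbfox2 lox/lox) and the Rosa26-mTmG reporter, with Cdh5(PAC)-CreERT2, whose Cre acts in endothelial cells that express Cdh5 (Rbfox2 EC-KO), or without it (littermate controls, which thus shared the reporter and the floxed alleles), of both sexes and 2 to 7 months of age, gave 3 low-flow and 2 high-flow libraries per genotype. These are named by the numbers 1, 4 and 5 of the table. The remaining 7 libraries came from culture, with 4 from 1 immortalized aortic endothelial line (1 left untreated, the others given 10% plasma, platelets plus macrophages, or both additions) and 3 from primary aortic endothelial cells (eGFP+ cells, and cells of Rbfox2 control and of EC-KO mice), and each stood alone in its condition.

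In G1, D-type cyclins bind CDK4 or CDK6 and begin to phosphorylate the retinoblastoma protein, which frees E2F transcription factors. E2F factors raise the E-type cyclins, which activate CDK2 and carry the cell into S phase, while p18 blocks CDK4 and CDK6, and p21 and p27 bind cyclin and CDK complexes. Endothelial cells of a healthy artery are mostly quiescent, and these genes are a usual readout of whether cells leave that state.

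The libraries held 4064477 to 19035957 counts on genes, with 4064477 to 6794904 in the 9 untreated pools. The low-flow untreated pools a and b stood apart: Actb took 10.6% and 10.1% of their counts, against 3.74% in low-flow pool c and 0.516% to 1.5% in the high-flow and sham pools, and their TMM scaling factors were 0.569 and 0.549 against 1.11 to 1.27 in the other pools. Scaling by total counts in place of TMM moved the median log2 fold-change of all genes between low and high flow from -0.07 to -0.69. Levels are therefore given as scaled FPKM, the FPKM (fragments per kilobase of transcript, relative to the mapped total) divided by the TMM factor of the library, and comparisons are given with and without pools a and b where the outcome changed. Scaling was done within the 9 untreated, the 14 treated and the 10 7-day libraries separately, so levels are not compared across these sets. All low-flow libraries of the treated mice came from an earlier sequencing run than the high-flow ones, so within treated mice flow and run cannot be told apart. The p-values measure the spread between pools or libraries, and in such flushes fewer cells of a type and less RNA per cell cannot be told apart. Counts of members at an unadjusted p under 0.05 are given without the share of all genes at that p. They are therefore not read as results about these members.

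Markers of other cells moved with flow. The 14 macrophage markers together made up 0.218% to 0.334% of counts in the untreated low-flow pools, 0.0069% to 0.017% at high flow and 0.0213% to 0.0653% in sham pools, and 9 neutrophil markers 0.0227% to 0.0475% at low and 0.000705% to 0.00208% at high flow. The 6 smooth muscle markers were at 0.232% to 0.43% at low and 0.0522% to 0.0617% at high flow, and the 11 endothelial markers were at 0.76% to 0.972% at high and 0.319% to 0.477% at low flow. Fat cell and erythroid markers went the other way: the 5 of fat cells were at 0.000118% to 0.00018% at low and 0.00874% to 0.137% at high flow (4 of 4 tested called lower, median log2 -7.90), and the 3 of erythroid cells at 0.0095% to 0.0199% and 0.0402% to 0.0639% (2 called lower). None of these markers was at 0 in all pools of a group. The 10 genes of cycling cells (Mki67, Top2a and others) were at 0.0531% to 0.113% at low flow, against 0.00282% to 0.00594% at high flow and 0.0065% to 0.0627% in sham. The part of these cells in the results that follow was not tested.

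Promoter sequence was matched for 7 of the 10 genes in RefSeq (GRCm38.p6, 250 bases before to 50 after the start), while Ccnd1, Ccnd2 and Ccne2 are named only. The files themselves use mm9, so these coordinates are not those of the counted genes. The promoters of Cdk4 and Ccne1, which rose at low flow, and the upstream promoter of Cdkn2c, which fell there, are shown because they let the regions of genes that moved in opposite ways be read side by side, with every CACGTG, the core of the E-box bound by MYC family factors, and every TTTNNCGC, an E2F-like element, in capitals:
Cdk4, chr10:127063285-127063584, plus strand: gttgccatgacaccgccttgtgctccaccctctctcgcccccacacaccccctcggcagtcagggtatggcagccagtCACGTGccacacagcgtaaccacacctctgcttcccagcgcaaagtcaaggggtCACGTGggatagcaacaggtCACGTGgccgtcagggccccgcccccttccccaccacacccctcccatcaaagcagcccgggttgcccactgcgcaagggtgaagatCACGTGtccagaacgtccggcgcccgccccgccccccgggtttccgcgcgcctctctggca
Ccne1, chr7:38107441-38107740, minus strand: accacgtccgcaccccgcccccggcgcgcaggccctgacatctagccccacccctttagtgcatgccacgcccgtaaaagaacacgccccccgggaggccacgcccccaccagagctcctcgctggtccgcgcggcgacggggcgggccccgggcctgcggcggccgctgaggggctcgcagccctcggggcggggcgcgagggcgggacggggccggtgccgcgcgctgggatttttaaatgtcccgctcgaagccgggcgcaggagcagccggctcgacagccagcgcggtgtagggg
Cdkn2c, chr4:109666707-109667006, minus strand: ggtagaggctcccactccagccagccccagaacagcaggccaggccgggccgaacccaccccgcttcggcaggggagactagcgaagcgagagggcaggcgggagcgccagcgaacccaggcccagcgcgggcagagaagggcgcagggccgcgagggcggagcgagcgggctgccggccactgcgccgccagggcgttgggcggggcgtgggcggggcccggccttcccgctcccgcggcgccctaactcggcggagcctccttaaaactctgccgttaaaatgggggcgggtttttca
The letters were searched on both strands, and CACGTG reads the same on both. The Cdk4 promoter held 4 CACGTG. Of 32851 mouse promoters of the same length, 8 held 4 or more (0.0244%), whereas 7.15% held at least 1. The Ccne1 promoter and this Cdkn2c promoter held no CACGTG, and the window of a second, downstream Cdkn2c start held 1. The Cdk6 window also held 1, and the windows of Ccnd3, Cdkn1a and Cdkn1b held none. All 3 printed windows lacked TTTNNCGC, found in 5.17% of promoters. Among the members matched, only the Cdk6 window, not printed, held this element, with 1 match. GC boxes (GGGCGG) numbered 3 in Cdk4, 4 in Ccne1 and 4 in Cdkn2c. At least 1 was found in 35.7% of promoters and 4 or more in 5.49%. These matches describe the letters of the windows.

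How the G1 genes responded to 48 hr of low flow was asked first. Ccnd1, Ccne1, Ccne2 and Cdk4 were higher and Ccnd2 and Cdkn2c lower at low than at high flow. That is 6 of the 9 members tested by edgeR's quasi-likelihood test at an adjusted p under 0.05, in a comparison where 46.2% of all 11236 genes tested were called, 23.6% higher and 22.6% lower. With 9 genes no difference between the share of members and that of all genes was shown. Ccnd3, Cdkn1a and Cdkn1b did not pass, and Cdk6 had too few counts to be tested.

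Among the D-type cyclins, the 3 genes went 3 ways. Ccnd1 (chromosome 7 of mm9, 152115836 to 152125774, minus strand), the cyclin that links growth factor signals to CDK4, had 34.5, 43.7 and 29.3 scaled FPKM in low-flow pools a, b and c, 17, 19.7 and 13.5 in the high-flow pools and 19.9, 16.9 and 26.5 in sham. All low-flow pools lay above all others. The log2 fold-change was 1.09 against high flow (SE 0.22, adjusted p = 0.00236 by edgeR), while sham as the reference gave 0.73 (SE 0.23, adjusted p = 0.033 by edgeR). This call depended on the scaling: by total counts Ccnd1 was at 0.39 against high flow (adjusted p = 0.443 by edgeR) and at -0.0054 against sham, and unscaled FPKM were 19.6, 24 and 32.7 at low against 18.9, 23.3 and 15.9 at high flow, which overlap. With pools a and b left out, low flow is pool c alone, which is assumed to vary like the pools of the other group, so its p-values hold no spread between low-flow pools. Ccnd1 was then 0.82 against high flow (adjusted p = 0.0499 by edgeR), and relative to sham it was 0.44 (adjusted p = 0.367 by edgeR). Ccnd2 (chromosome 6, 127075797 to 127101066, minus strand), a second D-type cyclin, went the opposite way. It had 32.5, 38.3 and 48.3 scaled FPKM at low flow, against 82.9, 81.7 and 92.7 at high flow and 92.2, 76.5 and 65.2 in sham. Every low-flow pool lay below every other pool, with a log2 fold-change of -1.12 (SE 0.25, adjusted p = 0.00395 by edgeR) against high flow, and the sham comparison gave -1.01 (SE 0.25, adjusted p = 0.014 by edgeR). Ccnd3 (chromosome 17, 47642000 to 47736632, plus strand) had 28.7, 43.5 and 28.6 at low flow, against 33.6, 28.3 and 23.8 at high flow and 24.6, 26.4 and 27.1 in sham, and its low- and high-flow pools overlapped (log2 0.22, adjusted p = 0.428 by edgeR).

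The E-type cyclins were scarce in the non-ligated artery. Ccne2 (chromosome 4, 11118498 to 11131926, plus strand) had 32.4, 28.4 and 16.4 scaled FPKM at low flow, against 2.79, 3.43 and 3.31 at high flow and 5.06, 3.71 and 8.77 in sham. The groups of low and high flow were far from overlapping, and the change of 2.99 (SE 0.27, adjusted p = 1.13e-05 by edgeR) was the largest fitted one among members with counts in every pool. Against sham it was 2.10 (SE 0.35, adjusted p = 0.00343 by edgeR). Ccne1 (chromosome 7, 38883003 to 38892553, minus strand) had 16, 14 and 14 counts in the low-flow pools, 0 in each high-flow pool and 1, 4 and 8 in sham, or 2.28, 3.17 and 1.21 scaled FPKM at low flow and 0.108, 0.428 and 0.771 in sham. Taking 3 counts per library as the floor at high flow, the low-flow level was at least 4.29-fold higher in FPKM and by scaled FPKM at least 7.51-fold (adjusted p = 0.000409 by edgeR); such floors cover counting error only. Against sham the log2 fold-change was 2.14 (SE 0.59, adjusted p = 0.0214 by edgeR). With pools a and b left out, Ccne1 had too few counts to be tested against high flow.

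Cdk4 (chromosome 10, 126500590 to 126504976, plus strand), the kinase partner of the D-type cyclins, had the highest mean level per length of the members in each untreated group, although Ccnd2 was above it in high-flow pool c. Cdk4 had 636, 716 and 319 scaled FPKM at low flow, against 121, 111 and 89.1 at high flow and 140, 85.4 and 208 in sham. Low-flow pools a and b carried about the same level and pool c less, but all 3 exceeded every other pool. The log2 fold-change was 2.37 (SE 0.34, adjusted p = 0.000246 by edgeR) against high flow, and the sham comparison gave 1.92 (SE 0.41, adjusted p = 0.0083 by edgeR). In pool c alone, whose spread is assumed as for Ccnd1, it was 1.59 against high flow (adjusted p = 0.00193 by edgeR). Cdk6 (chromosome 5, 3343893 to 3523218, plus strand), the second kinase of this kind, was at 0.337 to 0.445 scaled FPKM at low flow, against 0.238 to 0.635 at high flow and 0.25 to 0.759 in sham, with 2 to 9 counts a pool. At this depth no difference of Cdk6 was detectable, and Cdk4 made up 99.9% of the summed FPKM of both kinases at low flow and 99.6% at high flow.

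Of the inhibitors, Cdkn2c fell, and the others did not pass against high flow. Cdkn2c (chromosome 4, 109333481 to 109339794, minus strand), whose protein p18 blocks CDK4 and CDK6, had 7.8, 6.82 and 9.13 scaled FPKM at low flow, against 26.1, 18 and 18 at high flow and 14.1, 11.5 and 15.1 in sham. The 3 groups did not overlap, with sham between the others. The log2 fold-change was -1.36 (SE 0.25, adjusted p = 0.00125 by edgeR) against high flow, and the sham comparison gave -0.78 (SE 0.22, adjusted p = 0.0248 by edgeR). Cdkn1a (chromosome 17, 29227924 to 29237667, plus strand), which encodes the p53-induced inhibitor p21, had 13.3, 23.7 and 20.3 at low flow, against 26, 21.2 and 16.5 at high flow and 12.1, 5.79 and 10.7 in sham. Its low- and high-flow pools overlapped (log2 -0.17, adjusted p = 0.601 by edgeR), while all pools of both lay above all sham pools, and low flow against sham passed (0.96, SE 0.30, adjusted p = 0.0326 by edgeR). That call was lost with total counts (0.32, adjusted p = 0.628 by edgeR) and from pool c alone (1.06, adjusted p = 0.16 by edgeR), and the unscaled FPKM of low flow and sham overlapped. Cdkn1b (chromosome 6, 134870419 to 134875531, plus strand), which encodes p27, had 21, 11.6 and 8.68 at low flow, against 16, 18.3 and 17.6 at high flow and 13.5, 13.4 and 11.2 in sham. Low flow spanned the other groups (log2 -0.34 against high flow, adjusted p = 0.341 by edgeR). Other fits called Cdkn1b: from pool c alone, with its assumed spread, the change was -0.98 (adjusted p = 0.0234 by edgeR), and with total counts it was -1.10 (adjusted p = 0.0484 by edgeR).

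**Figure D1:**
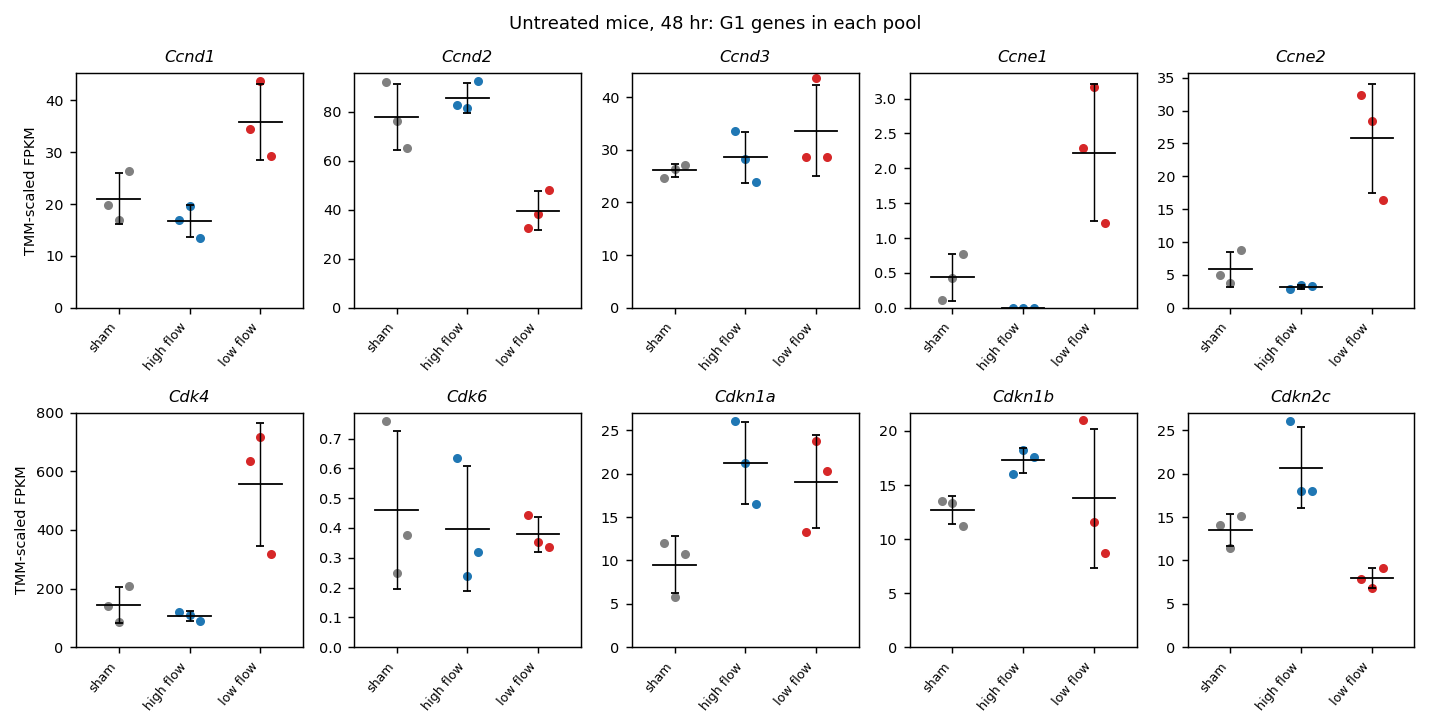
Scaled FPKM of each member in the 9 untreated 48 hr pools, 1 point a pool, with low flow, high flow and sham side by side. Low flow lies above both other groups for Ccnd1, Ccne2 and Cdk4 and below them for Ccnd2 and Cdkn2c, whereas the low-flow values of Ccnd3 (28.6 to 43.5) overlap those of high flow.

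Against sham, 7 of 9 members tested were called, 5 higher and 2 lower, where 40.3% of 11164 genes were called, 20.6% higher and 19.7% lower. The count was 4 by total-count scaling, where Ccnd1, Ccne1 and Cdkn1a were lost, and 0 from pool c alone, where edgeR called no gene at all and 3110 of 12187 passed an unadjusted p of 0.05. With the single pool no gene passed, so the loss was not particular to these members. The log2 fold-changes against sham were then -0.72 for Ccnd2 (adjusted p = 0.195), 1.39 for Ccne1 (0.366), 1.45 for Ccne2 (0.113), 1.11 for Cdk4 (0.183) and -0.60 for Cdkn2c (0.254, all by edgeR), against -1.01, 2.14, 2.10, 1.92 and -0.78 from all pools. Leaving out single pools gave 3 without low-flow pool a, 2 without b, 3 without sham pool a and 4 without sham pool b, where the calls over all genes were 2820 of 11510, 2775 of 11653, 2513 of 11477 and 3008 of 11438. Between high flow and sham, edgeR called no member, and 0% of 11030 genes; 4 members passed an unadjusted p of 0.05, and 1 was called by DESeq2. The 4 were Ccne2 (log2 -0.89, adjusted p = 0.446 by edgeR), Cdkn1a (1.14, adjusted p = 0.324 by edgeR and 0.0268 by DESeq2), Cdkn1b (0.43, adjusted p = 0.473 by edgeR) and Cdkn2c (0.59, adjusted p = 0.507 by edgeR). The low-flow and the high-flow comparisons share the sham pools, and low flow is the same 3 pools in both of its comparisons.

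Within a library the make-up of each family can be read without scaling between libraries. Ccnd1 was 32.8% ± 4.59 (SD, n = 3) of the summed D-type cyclin FPKM at low flow, against 12.8% ± 2.41 at high flow and 17.0% ± 4.6 in sham. Ccnd2 was 36.7% at low flow, against 65.5% at high flow and 62.1% in sham, and Ccnd3 was 30.5%, 21.7% and 21.0%. Both shares were separate between low and high flow (exact permutation p = 0.1, two-sided, the smallest that 3 against 3 can give; adjusted p = 0.18 over 18 tests). In these pools Ccne1 was a minor part of the E-type cyclins, with 7.83% at low flow and 6.84% in sham. The libraries with 150 bp reads had another make-up at the same flow, with Ccnd3 ahead of Ccnd2 at high flow (57.7% against 37.8% in IgG, 63.5% against 30.5% in PBS, 49.6% against 42.8% in 7-day control and 66.0% against 30.5% in EC-KO mice). There Ccne1 was 40.6% of the E-type cyclins at low flow in IgG, 39.2% in PBS, 31.9% in 7-day control and 40.1% in EC-KO mice. Read length and mice differ together between most of these libraries. The single 100 bp low-flow pool of PBS mice had 36.6% Ccnd2, 18.5% Ccnd3 and, of the E-type cyclins, 14% Ccne1, against 22.5%, 36.5% and 39.2% in the 150 bp libraries of the same treatment, and the 100 bp clodronate pool had 45.1%, 14.6% and 10.1% against 36.4%, 34.5% and 31.4%. In 10 low-flow libraries also counted after trimming the reads to 100 bp, the median ratio of trimmed to untrimmed FPKM was 1.00 for Ccnd1, 0.987 for Ccnd2, 0.991 for Ccnd3, 0.967 for Ccne1 and 1.62 for Ccne2, so in the same libraries the D-type levels moved little on trimming and Ccne2 rose. Other differences between the sets were not tested. For Cdkn1a the share of its sum with Cdkn1b was 58.6% at low and 54.7% at high flow (exact permutation p = 0.8).

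**Figure D2:**
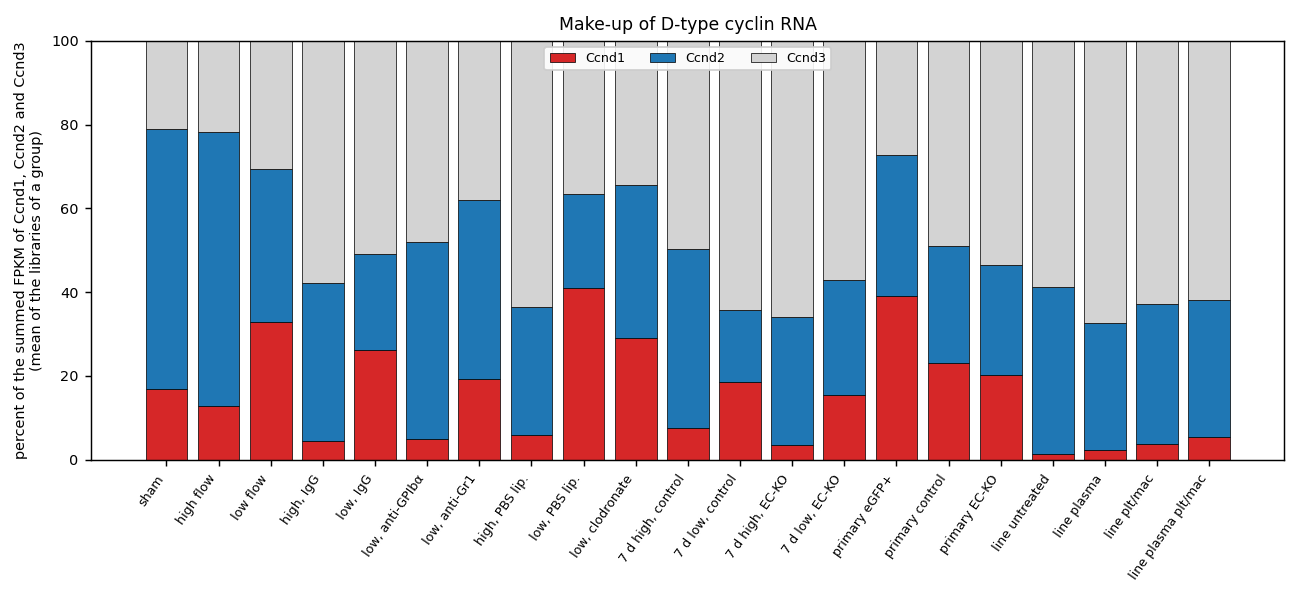
Share of Ccnd1, Ccnd2 and Ccnd3 in their summed FPKM (percent, bars from 0), as the mean of each group of arterial libraries and in each culture library. The Ccnd1 part is 32.8% in untreated low flow and 12.8% in untreated high flow, and 1.36% in the untreated endothelial line.

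Other genes of the G1 pathway are given next, from lists fixed by name, and their counts stand beside 46.2% of all genes called, 23.6% higher and 22.6% lower. Beside a median log2 fold-change of -0.07 over all genes, the 13 pocket proteins and E2F factors had a median of 1.36 between low and high flow, with 8 higher and 3 lower. Among them E2f1, an activating E2F, was at 3.29 (SE 0.47, adjusted p = 0.000271 by edgeR) and E2f8, a repressive E2F, at 3.95 (SE 0.66, adjusted p = 0.000711 by edgeR). Of 10 kinase partners, activators and turnover factors, 5 rose and 1 fell (median 0.50), led by Cks1b, a CDK-binding subunit, at 4.06 (SE 0.42, adjusted p = 2.85e-05 by edgeR) and the S-phase cyclin Ccna2 at 2.98 (SE 0.22, adjusted p = 3.68e-06 by edgeR). Of the 3 upstream transcription factors tested 2 were higher and 1 lower. Myc was at 3.32 (SE 0.31, adjusted p = 1.52e-05 by edgeR) and Trp53 at 2.51 (SE 0.37, adjusted p = 0.00034 by edgeR), while Foxo1, named after its value was seen, was at -0.55 (SE 0.19, adjusted p = 0.0366 by edgeR). Of the other CDK inhibitors 2 of 4 were tested and Cdkn1c (p57) fell, at -2.28 (SE 0.34, adjusted p = 0.000316 by edgeR).

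The 10 genes of cycling cells were all higher, with a median of 5.10, and Plk1, a mitotic kinase, was at 5.94 (SE 0.27, adjusted p = 1.2e-06 by edgeR). Of 14 p53 target genes 13 were tested, 4 were higher and 2 lower, 6 in all beside the 46.2% of all genes, and the median was 0.06. The growth arrest gene Gadd45a (3.02, SE 0.24, adjusted p = 5.21e-06 by edgeR) and the stress-induced Sesn2 (2.55, SE 0.42, adjusted p = 0.000633 by edgeR) led that list. From pool c alone against high flow, where 2731 of 12170 genes were called, 1732 higher and 999 lower, the counts were 10 higher of the cycling genes, 7 higher and 0 lower of the pocket proteins and E2F factors, 3 higher and 0 lower of the kinase partners, and 3 higher and 1 lower of the p53 targets. Against sham, beside 20.6% of all genes higher and 19.7% lower, 9 cycling genes and 5 kinase partners were higher, and 6 pocket and E2F genes were higher and 2 lower, and from pool c alone, where no gene at all was called, the medians were 2.03 for the cycling genes (2.35 with all pools), 0.89 for the pocket and E2F genes (0.82) and 0.27 for the kinase partners (0.45).

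Whether platelets, neutrophils or phagocytes are needed for the response at low flow was asked with the antibodies and liposomes, with 2 libraries per group. In IgG mice the low-flow artery had higher Ccnd1, Ccne1 and Cdk4 and lower Ccnd2 than the high-flow artery: 4 of 10 members, where 40.5% of 13401 genes were called, 22.8% higher and 17.7% lower. Ccnd1 had 63 and 52.7 scaled FPKM at low and 8.78 and 9.42 at high flow (log2 2.67, SE 0.64, adjusted p = 0.008 by edgeR). Cdk4 had 287 and 399 against 73.8 and 67.5 (2.28, SE 0.39, adjusted p = 0.00198 by edgeR). In both, the low-flow libraries lay above the high-flow ones. Ccnd2 had 53.5 and 48.2 against 79.5 and 74.6 (-0.60, SE 0.22, adjusted p = 0.0493 by edgeR), and the call was lost with another scaling (RLE), without the filter on low counts, with total counts and on leaving out any of the 4 libraries. Ccne1 had 7.85 and 20.6 against 0.819 and 0 (5.12, SE 1.67, adjusted p = 0.0302 by edgeR), and Ccne2 10.9 and 31.7 against 3.46 and 2.16 (adjusted p = 0.0692 by edgeR). In both E-type cyclins IgG library 2 was more than IgG library 1 at low flow. Other cells moved with this contrast: macrophage markers were at 0.226% to 0.246% of counts at low and 0.00757% to 0.0284% at high flow, smooth muscle markers at 0.437% to 0.472% and 0.0508% to 0.0762%, endothelial markers at 0.428% to 0.58% and 1.88% to 1.9%, neutrophil markers at 0.0109% to 0.0369% and 0.000806% to 0.00595%, and cycling genes at 0.0754% to 0.125% and 0.00346% to 0.00612%. Their part was not tested.

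In PBS liposome mice the same contrast called Ccnd1, Cdk4, Cdk6 and Cdkn1a, all higher, where 35% of genes were called and 19.6% were higher. Ccnd1 had 91.5 and 114 scaled FPKM at low and 11.9 and 10.1 at high flow (log2 3.22, SE 0.65, adjusted p = 0.00406 by edgeR). Cdk4 had 403 and 472 against 88.7 and 124 (2.04, SE 0.39, adjusted p = 0.00317 by edgeR). Cdk6 was low, with 1.57 and 3.03 against 0.373 and 0.27 (2.83, SE 0.73, adjusted p = 0.0122 by edgeR). Cdkn1a had 41.6 and 43.3 against 7.26 and 12.8 (2.08, SE 0.62, adjusted p = 0.0234 by edgeR), and in IgG mice 39.6 and 37.4 against 13.3 and 28.1, where it was not called. The difference of the flow change between IgG and PBS mice was called for no member and for 0% of genes (edgeR; 0 members with an unadjusted p under 0.05 and 0 by DESeq2), so no member was shown to differ between the 2 kinds of control. Macrophage markers were at 0.134% to 0.225% of counts in PBS low flow and 0.0119% to 0.0213% at high flow, smooth muscle markers at 0.302% to 0.589% and 0.0483% to 0.0923%, endothelial markers at 0.368% to 0.405% and 0.999% to 1.43%, neutrophil markers at 0.0103% to 0.0315% and 0.000838% to 0.00232%, and cycling genes at 0.0153% to 0.122% and 0.000888% to 0.0474%, and their part was not tested. The Cdk4 call held on leaving out each library of either contrast. Each count was 2 without low-flow library 2 or without high-flow library 1 of its treatment.

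The other G1 lists were read in the same contrasts, beside medians of 0.07 (IgG) and 0.06 (PBS) over all genes. In IgG mice 22.8% of all genes were called higher and 17.7% lower. In PBS mice 35% were called, with 19.6% of all genes higher. Of the other CDK inhibitors 3 were tested, and 1 was higher and 1 lower in each kind of control. Cdkn2b, which encodes the CDK4 and CDK6 inhibitor p15, was higher at low flow in IgG (log2 6.03, SE 1.17, adjusted p = 0.00322 by edgeR) and PBS mice (3.72, SE 0.94, adjusted p = 0.0113 by edgeR), and Cdkn1c lower in both (-1.11 and -1.44). Cdkn2b was also called against high flow after anti-GPIba (4.30, adjusted p = 0.0489 by edgeR) and anti-Gr1 (4.40, adjusted p = 0.034 by edgeR), and it had too few counts to be tested in the untreated pools. Of 13 pocket proteins and E2F factors 1 was higher and 2 lower in IgG and 3 lower in PBS mice, with Rbl2 at -1.99 and -2.20, Tfdp1 at 1.70 in IgG and Rb1 at -1.43 in PBS mice. Of 10 kinase partners 6 were higher and 2 lower in IgG and 3 higher and 1 lower in PBS mice, with Cks1b at 4.42 and 3.26, Ccna2 at 5.05 in IgG and Cdc25a at 1.75 in PBS mice. Myc was at 2.42 and 2.66 and Trp53 at 2.16 and 1.99. Of the cycling genes 3 of 10 were higher in IgG mice, led by Aurkb (7.97) and Plk1 (6.02), and 0 in PBS mice. Of 14 p53 targets 4 were higher and 2 lower in IgG and 3 higher and 3 lower in PBS mice, with Gadd45a at 3.55 and 3.61, Aen at 2.24 in IgG and Bax at 2.25 in PBS mice.

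Platelet depletion was compared with IgG in the low-flow artery. Ccnd1 and Cdk4 were lower after anti-GPIba than after IgG, 2 of 10 members, where 16.5% of genes were called and 10.5% were lower. Ccnd1 had 8.85 and 3.67 scaled FPKM after anti-GPIba against 63 and 52.7 after IgG (log2 -3.21, SE 0.65, adjusted p = 0.0211 by edgeR). Cdk4 had 105 and 109 against 287 and 399 (-1.68, SE 0.39, adjusted p = 0.0269 by edgeR). For both genes the groups were apart. In the IgG high-flow artery Ccnd1 was 8.78 and 9.42, so 1 anti-GPIba value lay between these and the other below both. Ccne1 had 1.19 and 0.38 against 7.85 and 20.6 (-4.17, adjusted p = 0.0778 by edgeR). Ccne2 had 1.93 and 1.13 against 10.9 and 31.7 (-3.80, adjusted p = 0.0556 by edgeR), and Ccnd3 67.6 and 53 against 97.9 and 130 (-0.91, adjusted p = 0.0652 by edgeR). Cdkn1a had 7.7 and 16.8 against 39.6 and 37.4 (-1.65, adjusted p = 0.0772 by edgeR). These 4 had an unadjusted p under 0.05 and were called when only the 2 groups were fitted or by DESeq2, which gave 6 members. All 10 members were apart between these groups, so this did not set the 4 off from the rest. Ccnd2 (58.3 and 58.4 against 53.5 and 48.2), Cdkn1b and Cdkn2c were at log2 0.20, 0.93 and 0.12 and did not pass.

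No member was called without either anti-GPIba library or without either IgG library. Calls over all genes fell in the same way, from 2216 of 13401 to 15 of 13933 and 1 of 13916 without anti-GPIba library 1 or 2 and to 83 of 13914 and 89 of 13948 without IgG library 1 or 2. The adjusted p of Ccnd1 was then 0.0511 to 0.122 and that of Cdk4 0.0511 to 0.188 (edgeR). The same libraries differed in other cells: macrophage markers were at 0.023% to 0.0323% of counts after anti-GPIba and 0.226% to 0.246% after IgG, neutrophil markers at 0.000527% to 0.00151% and 0.0109% to 0.0369%, and cycling genes at 0.00171% to 0.00229% and 0.0754% to 0.125%. Smooth muscle markers were at 0.0722% to 0.102% and 0.437% to 0.472%, with 2 of 6 called lower, endothelial markers at 1.03% to 1.07% and 0.428% to 0.58%, with 2 of 11 called higher, and fibroblast markers at 0.0378% to 0.083% and 0.0139% to 0.0171%, with 1 of 5 called higher. Platelet markers were at 0.0023% to 0.00289% after anti-GPIba and 0.00337% to 0.00385% after IgG, with 1 of 7 called higher and 1 lower. The part of these cells in the calls was not tested. Of the other lists, 3 of 10 cycling genes fell (median -6.21 against -0.04 over all genes), as did Ccna2 (-6.41, SE 1.83, adjusted p = 0.0396 by edgeR), Cks1b (-3.52, SE 0.96, adjusted p = 0.0355 by edgeR) and Trp53 (-1.32, SE 0.32, adjusted p = 0.0298 by edgeR), while Cdkn1c rose (1.56, SE 0.40, adjusted p = 0.032 by edgeR). Of 13 pocket proteins and E2F factors 2 were higher, among them the pocket protein gene Rbl2 (1.23, SE 0.33, adjusted p = 0.0347 by edgeR), and 1 lower, the E2F partner Tfdp1 (-2.23, SE 0.55, adjusted p = 0.031 by edgeR), with a median of -1.26. Of 14 p53 targets 2 were higher and 1 lower.

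Anti-Gr1 against IgG called 0% of genes and no member by edgeR, with 4 members at an unadjusted p under 0.05, 0 called by DESeq2 and 2 when only the 2 groups were fitted. The difference between the treatments was not tested. These 4 were Ccnd3 (66.2 and 56.2 scaled FPKM against 97.9 and 130, log2 -0.89, adjusted p = 0.243 by edgeR), Ccne1 (0.95 and 1.5 against 7.85 and 20.6, -3.54, adjusted p = 0.262 by edgeR), Ccne2 (0.862 and 2.1 against 10.9 and 31.7, -3.85, adjusted p = 0.243 by edgeR) and Cdk4 (147 and 198 against 287 and 399, -0.99, adjusted p = 0.246 by edgeR). Their groups did not overlap, but among all members only Cdkn1b did in scaled FPKM, so this did not set the 4 apart. Ccnd1 was split after anti-Gr1, with 17.1 in library 1 and 45 in library 2. Against the IgG high-flow artery, Cdk4 alone was called after anti-Gr1 (1.29, SE 0.38, adjusted p = 0.0486 by edgeR), where 13.1% of genes were called and 7.42% higher, and it was lost without either anti-Gr1 library or without high-flow IgG library 1. The neutrophil markers after anti-Gr1 were at 0.00204% to 0.00343% of counts and the macrophage markers at 0.129% to 0.134%. Cycling genes were at 0.00507% to 0.00993% after anti-Gr1 against 0.0754% to 0.125% after IgG (median log2 -3.78, with 0 of 10 called). Endothelial markers were at 0.778% to 0.968% against 0.428% to 0.58%, and fibroblast markers at 0.0344% to 0.0672% against 0.0139% to 0.0171%, with none called. Against the IgG high-flow artery 10 of 14 macrophage, 2 of 6 smooth muscle and 1 of 5 fibroblast markers were higher after anti-Gr1 and 4 of 11 endothelial markers lower, and the part of these cells was not tested.

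Clodronate liposomes were compared with PBS liposomes, and the 2 clodronate libraries lay far apart. Against PBS liposomes, 0.119% of genes were called and no member (edgeR; 1 member, Ccnd2, at an unadjusted p under 0.05, with 94.4 and 69.1 against 61.8 and 48.5 scaled FPKM; 0 by DESeq2). Clodronate library 1 had 31.3 scaled FPKM of Ccnd1 and library 2 had 131, against 91.5 and 114 after PBS. Ccne2 was at 1.15 and 27, Ccne1 at 0.469 and 13.8, and Cdk4 at 158 and 423. For each of these genes library 1 lay below both PBS libraries, and library 2 lay within their range or above it. Cycling genes were at 0.00389% and 0.115% of counts in these libraries, and the PBS libraries were also apart in them, at 0.0153% and 0.122% at low and 0.000888% and 0.0474% at high flow. The macrophage markers were low in both clodronate libraries (0.0239% to 0.0247%, against 0.134% to 0.225% after PBS). Without clodronate library 2, where 937 of 13997 genes were called, Cdk4 was called at log2 -1.45 (adjusted p = 0.0359 by edgeR), a value that rests on clodronate library 1 alone, which is assumed to vary like the libraries of the other groups.

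Against the PBS high-flow artery, the clodronate low-flow artery still had Ccnd1 (log2 2.88, SE 0.64, adjusted p = 0.0225 by edgeR) and Cdk4 (1.45, SE 0.38, adjusted p = 0.0434 by edgeR) higher, where 7.41% of genes were called and 4.61% higher. Smooth muscle markers were at 0.244% to 0.27% of counts in the clodronate low-flow and 0.0483% to 0.0923% in the PBS high-flow libraries, endothelial markers at 0.591% to 0.915% and 0.999% to 1.43%, and macrophage markers at 0.0239% to 0.0247% and 0.0119% to 0.0213%, and their part was not tested. No member was called without clodronate library 2 or without either high-flow PBS library. The anti-GPIba low-flow artery differed from the IgG high-flow artery in 7.7% of genes and in no member by edgeR (1 at an unadjusted p under 0.05 and 1 by DESeq2). These comparisons share their high-flow libraries with those of the IgG and PBS arteries, and their low-flow libraries with the comparisons of treatments.

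**Figure D3:**
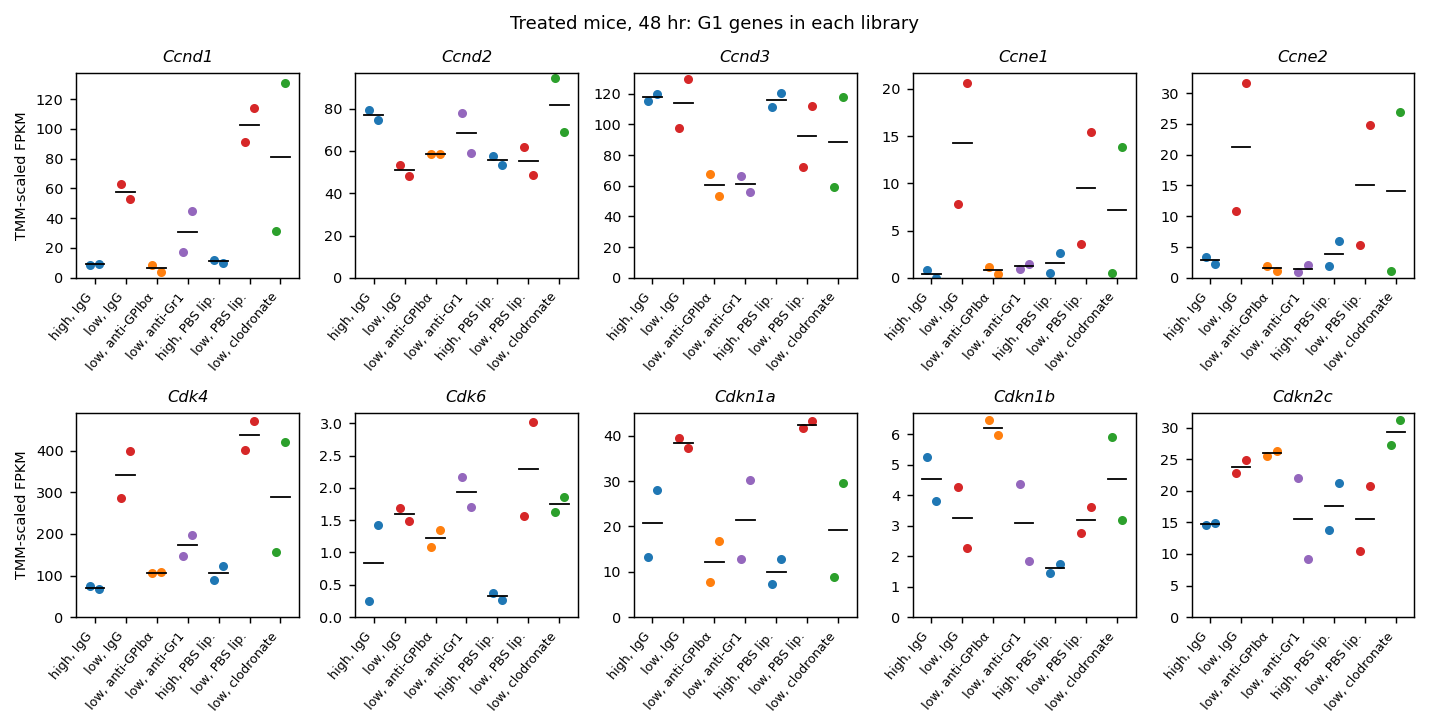
Scaled FPKM of each member in the 14 libraries of treated mice at 48 hr, 1 point a library. After anti-GPIba 1 point of Ccnd1 (8.85) lies between the 2 of the high-flow IgG artery (8.78 and 9.42) and the other (3.67) below both, and the 2 clodronate points of Ccnd1, Ccne1, Ccne2 and Cdk4 lie far apart.

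The 2 single 100 bp pools of liposome mice stood side by side with these. Unscaled FPKM of Ccnd1 were 77.7 in the PBS and 79.6 in the clodronate pool, of Cdk4 471 and 426 and of Ccne2 20.2 and 16.6. With 1 pool each they give no test.

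At 7 days of flow the targeted gene was read first. Rbfox2 had 3.27, 5.73 and 2.74 FPKM in control low-flow libraries 1, 4 and 5 and 3.66 and 3.84 in control high-flow libraries 4 and 5. In EC-KO it had 1.09, 0.169 and 0.622 at low and 0.791 and 1.05 at high flow. Every EC-KO library lay below every control library. In these flushes cells in which the Cre is not active can also add Rbfox2.

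In control mice at 7 days, Ccnd2 was lower at low flow and no other member was called, 1 of 10, where 2.4% of 13352 genes were called and 1.44% lower. Ccnd2 had 47.7, 26.2 and 34 scaled FPKM at low and 80.7 and 116 at high flow (log2 -1.45, SE 0.26, adjusted p = 0.0313 by edgeR). The groups did not overlap. Ccne1 had 1.01, 10.2 and 25.4 against 0.42 and 0.104 (5.47, adjusted p = 0.0558 by edgeR), Ccne2 2.48, 14.7 and 74.1 against 1.32 and 1.09 (4.65, adjusted p = 0.0741 by edgeR), and Cdk4 135, 322 and 311 against 104 and 110 (1.26, adjusted p = 0.0783 by edgeR). These 3 also were higher in every low-flow library, with library 1, which came from the earlier sequencing run, nearest to the high-flow level. Ccnd3 and Cdk6 too were higher in every low-flow library (adjusted p = 0.496 and 0.284 by edgeR). Ccnd1 had 18.3, 51.4 and 56.5 against 12.3 and 22.8, where library 1 fell within the high-flow range.

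The count changed with each library left out. Leaving out low-flow control library 1 gave 5: Ccne1 (log2 6.00), Ccne2 (5.19), Cdk4 (1.56) and Cdkn1a (1.62) higher and Ccnd2 lower. The replicate block called the same 5. Over all genes, 3897 of 13251 were called without that library and 2940 of 13352 with the block, against 320 of 13352 with all libraries. No member was called without low-flow library 4, low-flow library 5, high-flow library 4 or high-flow library 5. Cycling genes moved with the same libraries: they were at 0.0136% to 0.188% of counts in the control low-flow libraries and 0.00359% to 0.0036% at high flow, and 3 of the 10 were called higher (median 5.22 against 0.04 over all genes). Macrophage markers were at 0.0332% to 0.178% at low and 0.0049% to 0.0136% at high flow, smooth muscle markers at 0.129% to 0.176% and 0.0293% to 0.0388%, and endothelial markers at 0.531% to 1.13% and 1.6% to 1.68%, and their part was not tested.

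In EC-KO mice at 7 days no member was called between low and high flow (edgeR; 3 at an unadjusted p under 0.05, 2 by DESeq2), where 1.09% of genes were. With the replicate block a member was called, and more genes were called over all. Ccnd2 had 41.3, 41.3 and 43.9 scaled FPKM at low and 70.8 and 81.1 at high flow (log2 -0.85, adjusted p = 0.161 by edgeR). Ccnd3 had 93.2, 70.5 and 107 against 226 and 124 (-0.95, adjusted p = 0.138 by edgeR). Ccnd1 had 37.9, 9.6 and 30.1 against 6.46 and 10.6 (1.61, adjusted p = 0.262 by edgeR). Ccnd2 and Ccnd3 did not overlap between the flows, and Ccnd1 did through library 4. Ccne2 had 4.78, 5.09 and 19 against 2.77 and 2.6, and Cdk4 124, 142 and 198 against 113 and 96.4, again with every low-flow library above the high-flow ones. The same held for Ccne1. Here macrophage markers were at 0.103% to 0.186% of counts at low and 0.00846% to 0.0108% at high flow, smooth muscle markers at 0.11% to 0.168% and 0.0274% to 0.0321%, endothelial markers at 0.793% to 0.985% and 1.73% to 1.8%, and cycling genes at 0.0168% to 0.0552% and 0.00715% to 0.0261%. Fibroblast markers were at 0.0787% to 0.276% and 0.00894% to 0.0179%, and the part of these cells was not tested.

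EC-KO was then compared with control. At low flow 0% of genes and no member were called (edgeR; 2 members at an unadjusted p under 0.05, 0 by DESeq2). The 2 were Ccnd3 (93.2, 70.5 and 107 against 117, 148 and 155, log2 -0.64) and Cdk4 (124, 142 and 198 against 135, 322 and 311, -0.73), both with an adjusted p = 0.692 by edgeR. Ccnd3 did not overlap between the genotypes and Cdk4 did, while in same-numbered libraries both were lower in EC-KO. The fibroblast markers did not overlap either, at 0.0787% to 0.276% of counts in EC-KO and 0.0167% to 0.0706% in control (median log2 1.87, with 0 of 5 called). Neutrophil markers were at 0.000821% to 0.00342% in EC-KO and 0.00209% to 0.0382% in control (median -2.97). Cycling genes were at 0.0168% to 0.0552% and 0.0136% to 0.188% (median -1.96), and the lymphocyte median was -1.87. None of these genes was called, and the part of these cells was not tested. Without control library 1, where 1476 of 13251 genes were called, Cdk4 was called at -1.03 (adjusted p = 0.0198 by edgeR). At high flow 1 gene, or 0.00749%, was called and no member (edgeR; 0 members at an unadjusted p under 0.05, 0 by DESeq2). The interaction of flow and genotype was called for no member and 0% of genes (edgeR; 2 members at an unadjusted p under 0.05, 0 by DESeq2), the 2 being Ccnd3 (log2 -1.28) and Ccne1 (-3.50), each with an adjusted p = 0.986 by edgeR. No member was thus shown to differ by genotype beyond the spread of these libraries.

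**Figure D4:**
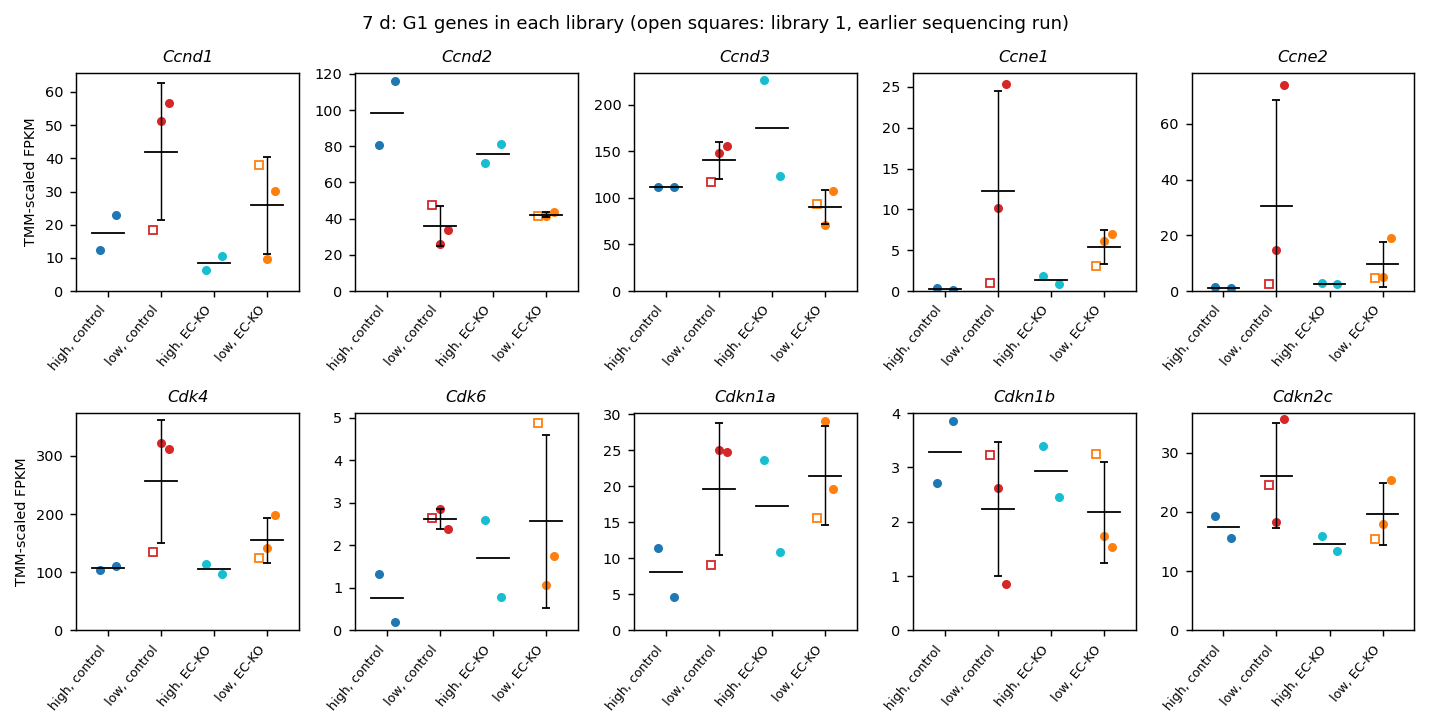
Scaled FPKM of each member in the 10 libraries at 7 days, for low and high flow in control and EC-KO mice, with library 1 of the earlier run as open squares. In controls Ccnd2 is lower at low flow (26.2 to 47.7 against 80.7 and 116), and the open square of Cdk4 (135) lies near the high-flow points (104 and 110).

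No inhibitor was called at 7 days with all libraries and no block, while with the replicate block Cdkn1a was higher at low flow in control mice (log2 1.64, adjusted p = 0.017 by edgeR). Cdkn1a had 9.03, 25 and 24.7 scaled FPKM in control low flow against 11.5 and 4.6 at high flow, and 15.6, 29 and 19.7 against 23.7 and 10.9 in EC-KO. Cdkn2c, which fell at low flow in untreated mice at 48 hr, had 24.5, 18.3 and 35.7 against 19.3 and 15.6 in control and 15.5, 18 and 25.5 against 15.9 and 13.4 in EC-KO. In the IgG mice it had 22.7 and 24.9 at low against 14.6 and 14.9 at high flow (log2 0.69, adjusted p = 0.201 by edgeR), which do not overlap. Cdkn1b was at 0.862 to 3.23 in control low flow and 2.72 to 3.86 at high flow.

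**Figure D5:**
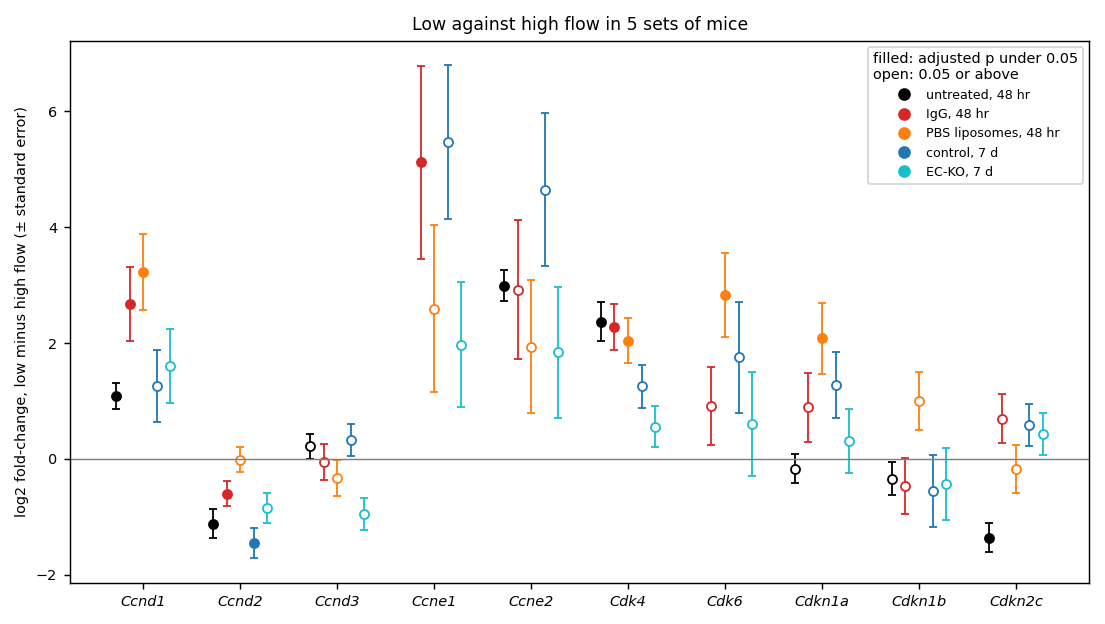
Log2 fold-change of each member between low and high flow with its standard error, in untreated, IgG and PBS liposome mice at 48 hr and in control and EC-KO mice at 7 days. Cdk4 is above 0 in all 5 contrasts and Cdkn2c is at -1.36 in untreated and 0.69 in IgG mice, and Ccne1 in untreated mice is not drawn because its high-flow pools held no count.

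Over these 5 contrasts each group of mice gave its own value. For Ccnd2 they were -1.12 in untreated, -0.60 in IgG, -1.45 in 7-day control and -0.85 in 7-day EC-KO mice. In PBS mice Ccnd2 was 61.8 and 48.5 at low against 57.8 and 53.3 at high flow, which overlap. Read length separates the untreated pools (100 bp) from the rest (150 bp). Cdkn1b ranged over 6.37 to 21.6 unscaled FPKM with 100 bp and over 0.857 to 6.79 with 150 bp reads, and Ccnd3 over 16.3 to 37.4 and 55 to 231. After trimming the reads of the 10 low-flow libraries to 100 bp the median FPKM ratio was 0.958 to 1.12 for 9 members, and for Ccne2 the ratio ranged from 1.15 to 2.88. Levels of these genes were not compared between the sets.

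Culture gave levels without an artery, with 1 library per condition and no test. The line is an SV40-immortalized aortic endothelial line, kept with the inducible SV40 gene off for the experiment, and it was left untreated or held for 48 hr with 10% plasma, with platelets and bone marrow macrophages, or with all of these. Its endothelial markers were only 0.0341% to 0.0381% of counts against 0.253% to 0.585% in the primary cells. Untreated, the line had 2.07 FPKM of Ccnd1 and 798 of Cdk4, 16.3 of Ccne1, 193 of Cdkn1a and 73.6 of Cdkn2c. Ccnd1 was 3.21 with plasma, 6.06 with platelets plus macrophages and 8.45 with all of them, ratios to untreated of 1.55 (95% counting interval 1.21 to 1.99), 2.92 (2.35 to 3.67) and 4.08 (3.31 to 5.05). This was the member with the largest ratio. The macrophage markers moved with it, from 0.00206% of counts untreated to 0.00573% with plasma, 0.0399% with platelets plus macrophages and 0.0315% with all of them. Cycling genes were at 0.0795% of counts untreated, 0.132% with plasma, 0.0877% with platelets plus macrophages and 0.155% with all of them, and the part of these was not tested. With all additions Ccne1 was at a ratio of 1.58 (1.4 to 1.78), while the other E-type cyclin, Ccne2, was at 0.806 (0.731 to 0.888). Cdk6 was at 0.603 (0.477 to 0.759), Cdkn1b 0.721 (0.563 to 0.923), Cdkn1a 1.30 (1.26 to 1.35), Cdk4 0.783 (0.764 to 0.802) and Cdkn2c 0.634 (0.576 to 0.697). These intervals cover counting error and not the spread between cultures.

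Primary aortic cells gave 3 libraries, 1 with 100 bp and 2 with 150 bp reads. Cells sorted as eGFP+ and cultured for 5 days (100 bp) had 66.2 FPKM of Ccnd1, 39.2% of the summed D-type cyclins. In CD31+ Icam2+ cells cultured for 7 days from control and Rbfox2 EC-KO mice Ccnd1 was 23.0% and 20.3% of that sum, against 1.36% in the untreated line, all with 150 bp reads. Its level was 61.4 and 49.7, a ratio of 0.809 (95% counting interval 0.763 to 0.857), with Rbfox2 at 9.33 and 0.675 FPKM. Cdkn1a was 198 in control and 139 in EC-KO (0.705, 0.672 to 0.74), Cdkn1b 1.97 and 3.34 (1.69, 1.2 to 2.39), and Ccne2 11.3 and 14 (1.24, 1.08 to 1.42). Ccnd3 was at 131 in both (0.998, 0.947 to 1.05) and Cdk6 at 2.42 in both (1.00, 0.7 to 1.42), with intervals that include 1. The macrophage markers were at 0.0334% of counts in the control and 0.000201% in the EC-KO culture, and the fibroblast markers at 0.00371% and 0.0143%, and their part was not tested. With 1 culture of each genotype the spread between cultures is unknown.

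Finally, the genes whose levels followed each member most closely were sought over the 33 libraries of artery, among 11362 genes with a mean of at least 1 FPKM, by Spearman correlation of log2(FPKM + 0.1). These values are descriptions, and the libraries share pools of flow state, run, read length and depth. Cdk4 was most like Ranbp1, Nop16 and Eif5a (rho 0.96 each). Ccne1 was most like the replication genes Cdt1 (0.95) and Mcm5 (0.94) and Incenp (0.94), and Ccne2 like Cenpq (0.95), Rfc4 (0.92) and Kif20a (0.92). Ccnd1 followed Alg3 (0.92), Mrto4 (0.88) and Dkc1 (0.88). Ccnd2 followed AU021092 (0.90), Ly6c1 (0.89) and Klk8 (0.89), Ccnd3 Pppde2 (0.92), Grk6 (0.91) and A730008H23Rik (0.90), and Cdkn1b Klf13 (0.92), Gsk3b (0.92) and Efha2 (0.89). The closest genes were at 0.84 for Cdk6 (Ewsr1), with Arhgap42 and Hps1 at 0.83. For Cdkn1a they were Ube2g2 (0.79), Clcf1 (0.78) and Znhit6 (0.72), and for Cdkn2c Zfp382 (0.75), Pccb (0.69) and 2610039C10Rik (0.68), all over the 33 libraries. Offsets between the 3 sets of libraries enter these values, so the same correlation was also taken within the 9 untreated, the 14 treated and the 10 7-day libraries. It was then 0.93 to 0.99 for the 3 genes of Cdk4 and 0.88 to 1.00 for those of Ccne1. For Ccne2 it was 0.78 to 0.97 and for Ccnd1 0.72 to 0.94. Cdkn1a was at 0.62 to 0.90 and Cdkn1b at 0.62 to 0.95. Lower values appeared for Ccnd2 (0.42 to 0.99), Cdkn2c (0.39 to 0.85), Ccnd3 (-0.37 to 0.92) and Cdk6 (0.02 to 0.87). Ccnd2 was at 0.47 with Ly6c1 and 0.42 with Klk8 in the treated libraries. In the untreated pools Ccnd3 and A730008H23Rik were at -0.37 and Cdk6 and Hps1 at 0.02. Among the members themselves over the 33 libraries, Ccnd1 and Cdk4 were at 0.79, Ccne2 and Cdk4 at 0.74, and Ccne1 with Cdk4 and with Ccne2 at 0.69, while Ccnd2 and Ccne1 were at -0.76 and Ccnd3 and Cdkn1b at -0.70. Within the untreated, treated and 7-day libraries, in this order, Ccnd1 and Cdk4 were at 0.52, 0.92 and 0.65, Ccne2 and Cdk4 at 0.83, 0.59 and 0.84, Ccne1 and Cdk4 at 0.85, 0.86 and 0.87, and Ccne1 and Ccne2 at 0.90, 0.81 and 0.99. Ccnd2 and Ccne1 were at -0.73, -0.65 and -0.94. The negative value of Ccnd3 and Cdkn1b was not kept within the sets (0.50, -0.38 and 0.02).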

How the data were processed

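Expression of 10 named genes was followed in 42 RNA libraries. The authors deposited 1 table of expected counts per gene and library, not normalized, estimated by RSEM 1.2.15 on an mm9 RefSeq annotation from STAR 2.5.1b alignments (for the untreated pools the methods also give TopHat), with RPKM for some libraries. Gene lengths and effective lengths in bases, as the authors deposited them, are 1 value per gene. Of 21675 entries, 1 without a gene was left out, and of 204 value columns 61 were used and 143 were not. Coordinates are those of mm9. FPKM was computed from the count, the effective length and the library total, and divided by the TMM factor within each set for scaled FPKM. For the culture libraries the RPKM the authors deposited were an alternative.

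The expected counts that the authors deposited were rounded, and edgeR 4.0.16 (R 4.3.3) was the main test (default filter on low counts, TMM, quasi-likelihood test, Benjamini-Hochberg adjustment over all genes tested, threshold 0.05). Untreated groups were fitted in pairs, the 7 treated groups together and the 4 groups at 7 days together. DESeq2 1.42.0 was an alternative (the authors used an earlier version), as were other scalings, filters, samples and the replicate block. Shares were compared by exact permutation tests. Python 3.11.15 was used for the rest, with scipy 1.17.1, numpy 2.4.6 and pandas 2.3.3. Scripts were first tested on simulated data. Counting intervals (95%, exact) and the floor of 3 counts cover counting error only. RSEM divides reads between similar transcripts: counts were not whole in 28 of 33 arterial libraries for Ccnd3 and 26 for Ccne2, and in 0 to 9 for the other members. No 2 replicates were alike within sampling noise (lowest chi-square per degree of freedom 9.37).

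The members and lists were chosen with earlier results of these data known. All members are named, with the 3 genes most like each member, and other pathway genes come from the 2 called genes of largest change in each list and comparison, except Foxo1. At 7 days the numbers 1, 4 and 5 come from column names, and the deviations of same-numbered low-flow control and EC-KO libraries correlated at 0.507, 0.181 and 0.363, so these were taken as pairs; the block changed no call of a member in that contrast.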

Additional observations from a re-analysis of the deposited data

Results flagged for a closer look

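Cdkn2c, the gene of the CDK4 and CDK6 inhibitor p18, had flow changes of unlike sign in different mice. Between low and high flow its log2 fold-change was -1.36 in untreated mice, called by edgeR (adjusted p = 0.00125), and 0.69 in IgG-treated mice, not called (adjusted p = 0.201 by edgeR). In untreated mice every low-flow pool lay below every high-flow pool, and in IgG mice both low-flow libraries lay above both high-flow ones. In PBS liposome mice it was at -0.17 and the libraries of both flows overlapped. The difference between untreated and IgG mice was not tested, since they differ in mice, sequencing run and read length.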

How the results depend on the processing

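Counts of members called are given in place of those of the full fits. With DESeq2 they were 1 for high flow against sham, 6 for anti-GPIba against IgG, 1 for anti-GPIba, 3 for anti-Gr1 and 4 for clodronate low flow against high flow, and at 7 days 4 for low against high flow in control and 2 in EC-KO mice. Without the filter on low counts they were 4 for anti-GPIba against IgG, 2 for anti-Gr1 against high flow and 2 for control flow at 7 days. With only the 2 groups compared they were 6 for anti-GPIba and 2 for anti-Gr1 against IgG, 2, 0 and 0 for anti-GPIba, anti-Gr1 and clodronate low flow against high flow, and 0 and 1 for control and EC-KO flow at 7 days. With the replicate block they were 4 for anti-GPIba against IgG, 5 for control flow and 1 for EC-KO flow at 7 days, and the block moved no other count by over 1.5 times. These numbers are shared by 2 pairs only, and control low-flow library 1 has no high-flow partner. The untreated pools have letters only, so no paired analysis was possible there.

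The counts over all genes moved with those of the members. With DESeq2 they were 91 for high flow against sham, 3690 for anti-GPIba against IgG (2216 with all settings as in the report), 2182, 2922 and 1984 for anti-GPIba, anti-Gr1 and clodronate low flow against high flow (1032, 1753 and 993), and 2185 and 939 for control and EC-KO flow at 7 days (320 and 146). Without the filter they were 2532, 1853 and 654 in the 3 contrasts named for it. With only the 2 groups compared they were 4449 and 225 for anti-GPIba and anti-Gr1 against IgG, 2003, 267 and 0 against high flow, and 3 and 858 at 7 days. With the block they were 3307, 2940 and 1317.

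Chosen after seeing the data, low flow against sham gave 4 with total-count scaling, where Ccnd1 was at -0.0054, and 0 without low-flow pools a and b, and control flow at 7 days gave 6 without the libraries of the earlier run and 0 without those sequenced again. Over all genes these called 3358, 0, 3840 and 12. Leaving out 1 library gave 2 to 6 for low flow against sham, 6 to 7 against high flow, 0 to 0 for anti-GPIba against IgG, 0 to 1 for clodronate against PBS, 2 to 3 for IgG and 2 to 3 for PBS flow, 0 to 1 for anti-Gr1 and 0 to 2 for clodronate against high flow, 0 to 1 for EC-KO against control at low flow and 0 to 5 for control flow at 7 days. Over all genes the ranges in this order were 2513 to 4757, 4151 to 5411, 1 to 89, 0 to 937, 2141 to 4231, 1482 to 3839, 432 to 1335, 76 to 1724, 0 to 1476 and 3 to 3897. The cause was not tested. Of 1097 other values of members, 1033 kept their direction and side of the threshold. In culture, TMM scaling moved 7 of 40 ratios, the deposited RPKM 2 and the full length 0. The second run of the untreated pools and sums of runs were not run. Depth limits Cdk6 and Ccne1 in the untreated pools.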
